A study of Arabidopsis thaliana with 4 samples.

Results

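The UDP-glycosyltransferase (UGT) family was examined in aerial parts of Arabidopsis thaliana seedlings, with the mutant aln-1 set against its wild type, Col-0. The members are the probe sets assigned to a single gene whose symbol in the array's gene annotation starts with UGT and a digit, which gave 47 genes, each with 1 probe set, of the 13356 genes that had a probe set of their own; the table held 22746 probe sets in all. All 47 matched a RefSeq gene by its identifier, and all 47 were tested, since no filter on low values was applied. They belong to UGT groups D, E, F, G, H, J and L of the plant family, plus UGT80B1, a sterol glucosyltransferase that lies outside the lettered groups. RefSeq held 64 genes with a UGT symbol or synonym, and the annotation left out 8730 of the 22746 probe sets. The 47 are therefore not the whole family, and counts below for the family and its groups cover these 47 only.

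UGTs move a sugar from a UDP-sugar donor to a hydroxyl, carboxyl, amino or thiol group of a small molecule. In plants the acceptors include flavonols, monolignols, hydroxycinnamic acids, salicylate, auxin, cytokinins, abscisic acid (ABA), jasmonate derivatives and foreign compounds. The sugar usually makes the acceptor more soluble, inactive or ready for storage in the vacuole. Many UGT genes lie in runs of close neighbours that arose by gene duplication.

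Transcripts were measured with Affymetrix ATH1 arrays on RNA from seedlings harvested 2 weeks after germination, grown aseptically on solid medium with sucrose under long days. There were 2 wild type arrays and 2 aln-1 arrays, labelled as separate biological replicates. The aln-1 line carries a mutant allele of ALN, the gene for allantoinase, in Col-0 and accumulates allantoin, an intermediate of purine breakdown. A single mutant allele was used, so the allele and anything else particular to the line cannot be told apart. The ALN signal was 1.59 and 2.03 on the wild type arrays and -1.59 and -1.72 on the aln-1 arrays.

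Each deposited value is a log2 signal relative to the median of its own probe set over the 4 arrays, so differences between genotypes can be read but levels of different genes cannot be compared. The tissue label could therefore not be checked by level. Differences are aln-1 minus wild type on the log2 scale with their standard error (SE) from limma, and p-values carry a Benjamini-Hochberg adjustment across the full table of 22746 probe sets. A gene that passed an adjusted p of 0.05 is said to have risen or fallen. With 2 arrays against 2, a second description needs no model: whether each aln-1 array differed from each wild type array by 2-fold or more in the same direction, in all 4 pairs. In whole shoots, a change in the number of cells of a type and a change of RNA per cell cannot be told apart.

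Among the UGT genes, 1 of 47 rose and 0 fell in the limma test. Of all probe sets 0.154% rose and 0.101% fell. The mutated gene ALN itself did not pass, with a difference of -3.46 (SE 0.22) and a limma adjusted p of 0.0580. A gene that did not pass can therefore still differ. At an unadjusted limma p under 0.05 there were 21 members, 14 higher and 7 lower, or 44.7% of the 47, beside 23.4% of all probe sets. At least 2-fold apart in all 4 pairs were 9 members, 7 higher and 2 lower in aln-1. These are 19.1% of the family, with 14.9% higher and 4.26% lower, beside 8.21%, 4.67% and 3.54% of all probe sets. Among the 13513 probe sets with 1 named gene the share was 8.50%. The count of 9 became 16 without wild type replicate 2, where only 2 pairs had to differ. That condition is looser, so the count could not fall, and the share of all probe sets that met it is not given here.

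The genotypes did not overlap for 28 of the 47 genes, which is 59.6% beside 60.1% of all probe sets. Of these 28, aln-1 lay above for 18 and below for 10, or 38.3% and 21.3% of the family. Over all probe sets aln-1 lay above in 25.2% and below in 34.9%. The median difference of the family was 0.05 beside -0.08 over all probe sets, and the median size of a difference regardless of sign was 0.64 beside 0.42. Without aln-1 replicate 1 the family's median difference was 0.14. Leaving out 1 array moved the difference by more than 1.5 times, or turned its sign, for 26 of the 47 genes. With 2 arrays per genotype, overlap by itself brings this about, so the 19 genes with overlapping genotypes were bound to be among them. Of the 28 that did not overlap it held for 7. It held for 0 of the 9 that were 2-fold apart in all pairs, which are genes picked for a wide gap.

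**Figure D1:**
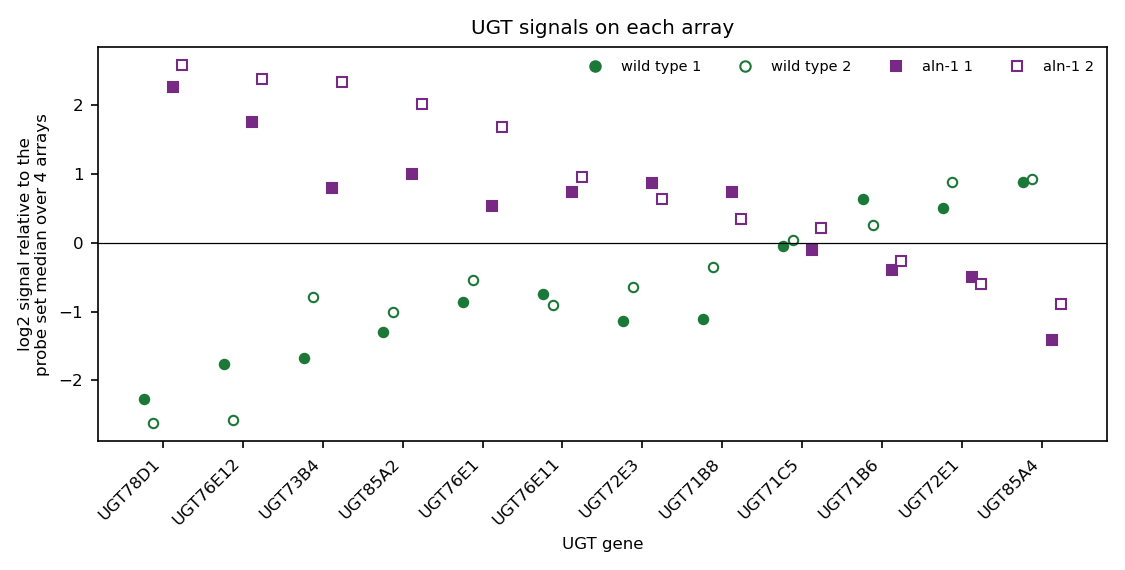
Log2 signal relative to the probe set's median (y axis) on each of the 4 arrays for the 9 UGT genes that reached 2-fold in each of the 4 pairs and for the ABA glucosyltransferase genes UGT71B6, UGT71B8 and UGT71C5 (x axis, ordered by difference). Circles are wild type and squares aln-1, filled for replicate 1 and open for replicate 2. For UGT78D1 both wild type arrays lie below -2 and both aln-1 arrays above 2, while the genotypes overlap for UGT71C5.

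Group F holds the flavonoid glycosyltransferases of the UGT78D type, and 1 of its 3 members rose. UGT78D1 (AT1G30530), which puts rhamnose on the 3 position of flavonols, was at -2.27 and -2.63 on the wild type arrays and at 2.27 and 2.59 on the aln-1 arrays. Both mutant arrays were far above both wild type arrays, and the closest pair was 4.55 apart. UGT78D1 rose by 4.88 (SE 0.22), a 29.5-fold difference, from -2.45 ± 0.25 to 2.43 ± 0.22 (SD, n = 2 each), with a limma adjusted p of 0.0480. Only 42 of the 22746 probe sets had a difference at least as far above 0.

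The other UGT78D genes act on the same position of the same molecules with other sugars. UGT78D2 (AT5G17050), which attaches glucose to flavonols and anthocyanidins, was at -0.08 and 0.08 in wild type and at -0.41 and 0.09 in aln-1. UGT78D3 (AT5G17030), which attaches arabinose, had a probe set in the dim class described below. UGT78D3 was at 0.03 and -0.03 in wild type and at 0.11 and -0.16 in aln-1. For both the genotypes overlapped, with differences of -0.16 (SE 0.24) and -0.02 (SE 0.17); the first was 0.09 without aln-1 replicate 1, and the second was 0.03 with arrays centred on their medians. Whether UGT78D1 differed from these 2 in its response was not tested.

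The call of UGT78D1 lay close to the threshold. With a robust variance prior its limma adjusted p was 0.0512, and 0 of all probe sets were called. As each array was left out in turn, its difference stayed between 4.71 and 5.06. Those fits leave a single array for 1 genotype, so only the difference is given.

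Group H, the UGT76 family, held 3 of the 7 members that were at least 2-fold higher, and all 3 were UGT76E genes. UGT76E12 (AT3G46660) was at -1.76 and -2.57 in wild type and at 1.76 and 2.39 in aln-1. This was the second widest separation in the family, with a difference of 4.24 (SE 0.42), 18.9-fold, and a limma adjusted p of 0.0788. UGT76E11 (AT3G46670), an enzyme known to glucosylate flavonoids, was at -0.75 and -0.90 in wild type and at 0.75 and 0.96 in aln-1. Its arrays agreed closely within each genotype, and its difference was 1.68 (SE 0.16), 3.19-fold, with a limma adjusted p of 0.0788.

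UGT76E1 (AT5G59580) and UGT76E2 (AT5G59590) glucosylate 12-hydroxyjasmonate, an inactivated form of the hormone jasmonate. UGT76E1 was at -0.86 and -0.54 in wild type and at 0.54 and 1.68 in aln-1. The aln-1 arrays were well apart but both lay above wild type, with a difference of 1.81 (SE 0.48), 3.51-fold, and a limma adjusted p of 0.170. UGT76E2, its direct neighbour in the genome, was at 0.11 and -0.02 in wild type and at 0.02 and -0.32 in aln-1, a difference of -0.19 (SE 0.19) with overlapping genotypes.

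The other 4 members of group H showed smaller or more scattered differences. UGT76B1 (AT3G11340), which glucosylates isoleucic acid and salicylate, differed by 0.73 (SE 0.70), with 1 aln-1 array at 1.31 and the other at -0.24 inside the wild type range; without aln-1 replicate 2 its difference was -0.04. The cytokinin N-glucosyltransferase genes UGT76C1 (AT5G05870) and UGT76C2 (AT5G05860) differed by 0.34 (SE 0.23) and -0.28 (SE 0.16). UGT76D1 (AT2G26480), which glucosylates dihydroxybenzoic acids, differed by -0.13 (SE 0.15). None of these 4 had a limma adjusted p below 0.373.

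Group D, the UGT73 family, holds genes known from responses to pathogens and foreign compounds. UGT73B4 (AT2G15490), which glucosylates breakdown products of the explosive TNT, was at -1.68 and -0.79 in wild type and at 0.79 and 2.34 in aln-1. The arrays varied by more than 1 log2 unit within aln-1, yet the closest pair across genotypes was still 1.59 apart. Its difference was 2.80 (SE 0.70), 6.97-fold, with a limma adjusted p of 0.162. UGT73B5 (AT2G15480), the next gene in the genome, was at -0.58 and -0.42 in wild type and at 0.42 and 1.06 in aln-1. Its difference was 1.24 (SE 0.28) with a limma adjusted p of 0.148, and its closest pair was 0.85 apart, below the 2-fold limit. UGT73C7 (AT3G53160) also lay above wild type on both aln-1 arrays, with a difference of 0.89 (SE 0.20). UGT73B1 (AT4G34138) differed by 0.03 (SE 0.35) with overlapping genotypes.

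The remaining 3 genes of group D had dim or scattered signals. UGT73C1 (AT2G36750), which can glucosylate cytokinins, was at 1.81 and 0.09 in wild type and at -0.09 and -0.15 in aln-1, so its difference of -1.07 (SE 0.67) was -0.21 without wild type replicate 1. UGT73C2 (AT2G36760) differed by -1.18 (SE 0.81) and UGT73D1 (AT3G53150) by -0.40 (SE 0.68). The first was -0.20 without aln-1 replicate 1, and the second turned to 0.32 without wild type replicate 1.

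**Figure D2:**
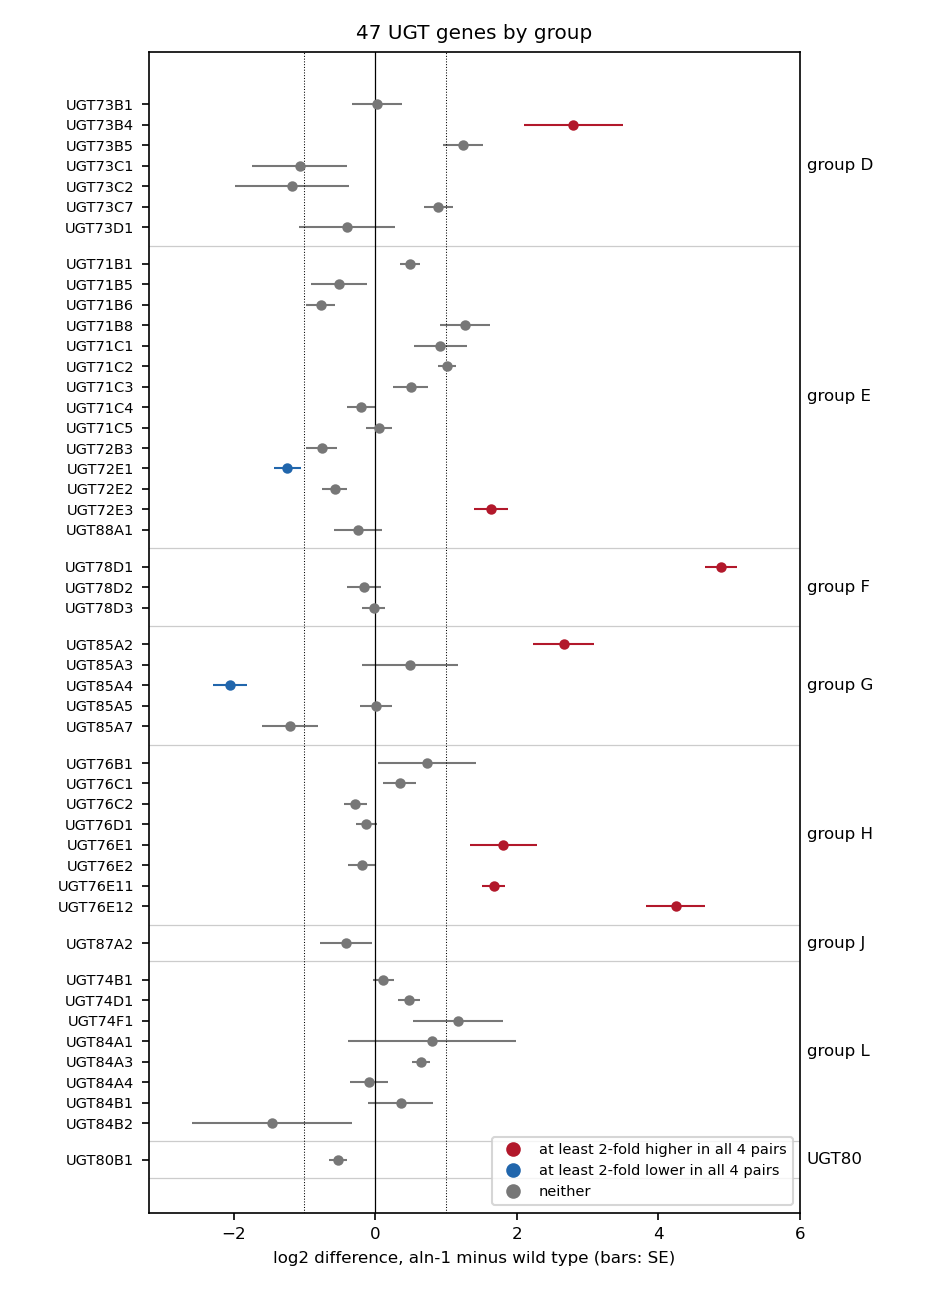
Log2 difference, aln-1 minus wild type (x axis), of all 47 UGT genes (y axis), with bars for the SE from limma and dotted lines at a 2-fold difference. Red and blue mark the 7 higher and 2 lower genes that reached 2-fold in each of the 4 array pairs; group H holds 3 of them and group L none.

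Group E is the largest, with 14 members of the UGT71, UGT72 and UGT88 families. The UGT72E genes glucosylate lignin precursors: UGT72E1 acts mainly on the aldehydes, and UGT72E2 and UGT72E3 on coniferyl and sinapyl alcohol. UGT72E1 (AT3G50740) was at 0.50 and 0.88 in wild type and at -0.50 and -0.59 in aln-1. It was lower on both mutant arrays, with a difference of -1.24 (SE 0.20), 2.36-fold, with a limma adjusted p of 0.105, and with a closest pair of -1.01 it was just inside the 2-fold limit. UGT72E3 (AT5G26310) went the opposite way, at -1.13 and -0.64 in wild type and 0.87 and 0.64 in aln-1. Its difference was 1.64 (SE 0.25), 3.11-fold, with a limma adjusted p of 0.101. UGT72E2 (AT5G66690) was lower on both aln-1 arrays, with a difference of -0.57 (SE 0.18) and a limma adjusted p of 0.196. UGT72B3 (AT1G01420) was likewise lower, with a difference of -0.76 (SE 0.22). Genotypes were separated for all 4 UGT72 genes among the 47, 1 above and 3 below, where 60.1% of all probe sets were separated; GT72B1 (UGT72B1), whose symbol falls outside the rule, lay above wild type, with a difference of 1.37 (SE 0.17).

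The UGT71 genes include those that glucosylate ABA, the hormone named in the study's title. UGT71B6 (AT3G21780), an ABA glucosyltransferase, was at 0.64 and 0.26 in wild type and at -0.39 and -0.26 in aln-1. Both mutant arrays were lower, with a difference of -0.77 (SE 0.20), a 1.71-fold step, and a limma adjusted p of 0.168. UGT71B8 (AT3G21800), a close relative of UGT71B6 that also glucosylates ABA, was at -1.12 and -0.35 in wild type and at 0.74 and 0.35 in aln-1. It lay above wild type on both arrays, the opposite side from UGT71B6, with a difference of 1.27 (SE 0.36), 2.41-fold, and a limma adjusted p of 0.179. UGT71C5 (AT1G07240), the other well described ABA glucosyltransferase, was at -0.04 and 0.04 in wild type and at -0.11 and 0.21 in aln-1, which overlap. None of the 3 passed the test.

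The remaining UGT71 genes were mostly above wild type. UGT71C2 (AT2G29740) was at -0.52 and -0.50 in wild type and at 0.51 and 0.50 in aln-1. With a within-genotype SD of 0.012 this gene had the closest replicates of the family; its difference was 1.01 (SE 0.13), its limma adjusted p 0.0888, and its closest pair, at 0.99, was just outside the 2-fold limit. UGT71C1 (AT2G29750), its direct neighbour, differed by 0.92 (SE 0.37), UGT71C3 (AT1G07260) by 0.50 (SE 0.25) and UGT71B1 (AT3G21750) by 0.49 (SE 0.14), all with both aln-1 arrays above wild type. UGT71B5 (AT4G15280) and UGT71C4 (AT1G07250) differed by -0.52 (SE 0.40) and -0.20 (SE 0.20), and UGT88A1 (AT3G16520) by -0.25 (SE 0.34), with overlapping genotypes. UGT71B5 was at -0.05 when aln-1 replicate 1 was left out, and UGT71C4 at -0.01 and UGT88A1 at 0.15 when aln-1 replicate 2 was.

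Group G, the UGT85A genes, held 1 higher and 1 lower gene among those 2-fold apart in all pairs. UGT85A2 (AT1G22360) was at -1.30 and -1.0 in wild type and at 1.00 and 2.02 in aln-1. Its closest pair was 2.01 apart, and its difference was 2.66 (SE 0.43), 6.34-fold, with a limma adjusted p of 0.106. UGT85A4 (AT1G78270) was at 0.89 and 0.93 in wild type and at -1.41 and -0.89 in aln-1. It had the lowest difference of the family, -2.06 (SE 0.24), 4.16-fold, with a limma adjusted p of 0.0860. UGT85A7 (AT1G22340), the neighbour of UGT85A2, was lower on both aln-1 arrays, with a difference of -1.21 (SE 0.39). UGT85A3 (AT1G22380) and UGT85A5 (AT1G22370) overlapped between genotypes, with differences of 0.49 (SE 0.67) and 0.01 (SE 0.23); without wild type replicate 2 both were at -0.11.

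Group L makes glucose esters and related conjugates of salicylate, auxin and hydroxycinnamic acids, and 0 of its 8 members reached the 2-fold limit in all pairs. UGT84A3 (AT4G15490), which forms hydroxycinnamoyl glucose, was at -0.30 and -0.36 in wild type and at 0.33 and 0.30 in aln-1. Its 1.56-fold difference, 0.64 on the log2 scale (SE 0.13), was small but well separated, with a limma adjusted p of 0.134. Its neighbours UGT84A1 (AT4G15480) and UGT84A4 (AT4G15500), enzymes of the same kind, differed by 0.81 (SE 1.19) and -0.09 (SE 0.27). The wild type arrays of UGT84A1 were at -2.03 and 0.64, its within-genotype SD of 1.53 over both genotypes was the widest of the family, and its difference was -0.53 without wild type replicate 1.

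UGT74D1 (AT2G31750), which glucosylates auxins, differed by 0.47 (SE 0.15) with both aln-1 arrays higher. UGT74F1 (AT2G43840), which makes salicylate glucoside, differed by 1.17 (SE 0.64). That value fell to 0.38 when wild type replicate 2, at -1.72, was left out. UGT74B1 (AT1G24100), a glucosinolate enzyme, was between -0.18 and 0.06 on all 4 arrays. The auxin glucosyltransferase gene UGT84B1 (AT2G23260) and its neighbour UGT84B2 (AT2G23250) differed by 0.36 (SE 0.46) and -1.46 (SE 1.13). The latter rested on wild type replicate 1 at 2.83 and was -0.01 without it.

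Outside these groups, UGT87A2 (AT2G30140) of group J, known for an effect on flowering time, differed by -0.42 (SE 0.37) with overlapping genotypes and by -0.049 without aln-1 replicate 1. UGT80B1 (AT1G43620) lay below wild type on both aln-1 arrays, at -0.24 and -0.26 against 0.31 and 0.24, a difference of -0.53 (SE 0.13) with a limma adjusted p of 0.162.

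**Figure D3:**
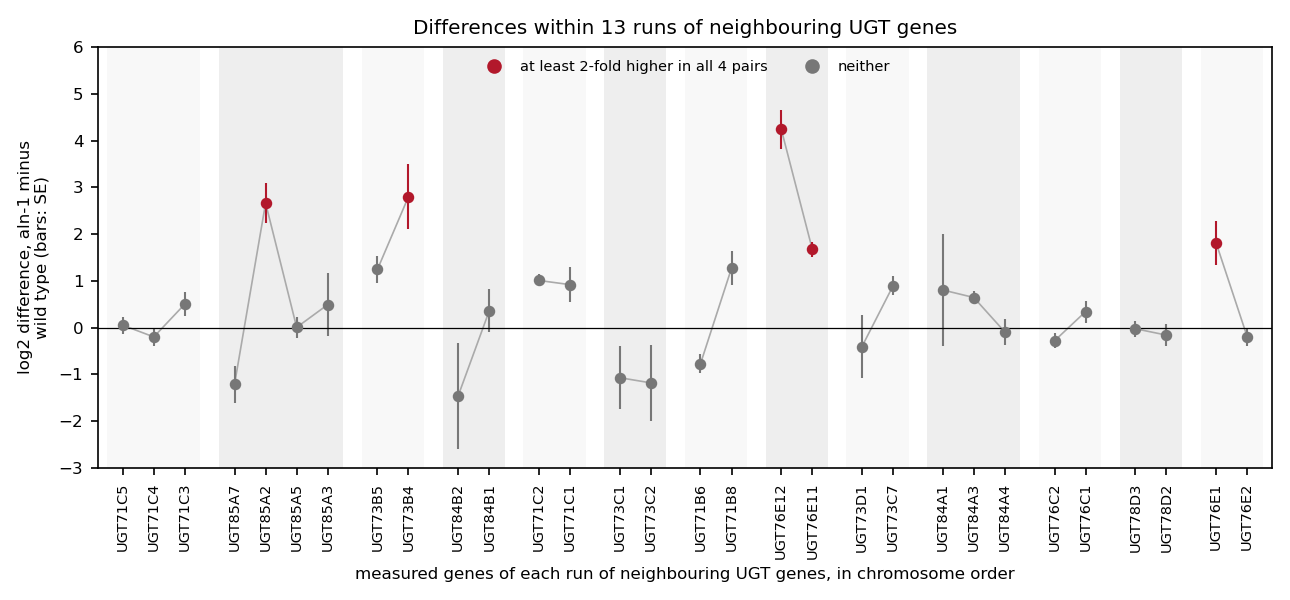
Log2 difference, aln-1 minus wild type (y axis, bars for the SE), of the 30 measured UGT genes in 13 runs of neighbouring UGT genes, in chromosome order within a run (x axis; grey lines join genes of a run). Red marks the 5 genes at least 2-fold higher in all 4 array pairs; the UGT85A run spans -1.21 to 2.66.

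UGT genes that lie next to each other were compared in direction. By RefSeq gene order, 30 of the 47 genes fell in 13 runs, with at most 1 other protein-coding gene between consecutive UGT genes. Only the 47 and the 64 RefSeq genes with a UGT symbol or synonym counted as UGT genes. A UGT gene under another name was treated as an other gene, so runs and pairs could change with fuller naming. Of the 17 consecutive pairs of measured genes, 8 had differences of the same sign and 9 of opposite sign. In the UGT76E12 and UGT76E11 pair and in the UGT73B5 and UGT73B4 pair both genes lay above wild type on both aln-1 arrays. In the UGT85A7 and UGT85A2 pair and in the UGT71B6 and UGT71B8 pair the first lay below and the second above. UGT78D1, UGT85A4, UGT72E1 and UGT72E3, the other genes 2-fold apart in all pairs, were in no such run. All 47 probe sets were of the plain type, without the suffixes that mark probes shared between similar transcripts; binding of transcripts of close relatives was not tested.

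The replicate spread depended on how bright a probe set was. The rounding step of the deposited values gave an approximate brightness class, which placed 16 UGT genes in the bright, 26 in the middle and 5 in the dim class. Over all probe sets the median within-genotype SD was 0.14, 0.27 and 0.95 in these classes, and over the 47 genes it was 0.27. Of the 9 genes 2-fold apart in all pairs, UGT76E11 and UGT72E1 were bright, the other 7 were in the middle class, and 0 were dim. In the middle class 26.9% of the UGT genes were 2-fold apart in all pairs beside 9.67% of all its probe sets, and in the bright class 12.5% beside 4.34%. The dim members were UGT73C1, UGT73C2, UGT78D3, UGT84B1 and UGT84B2.

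**Figure D4:**
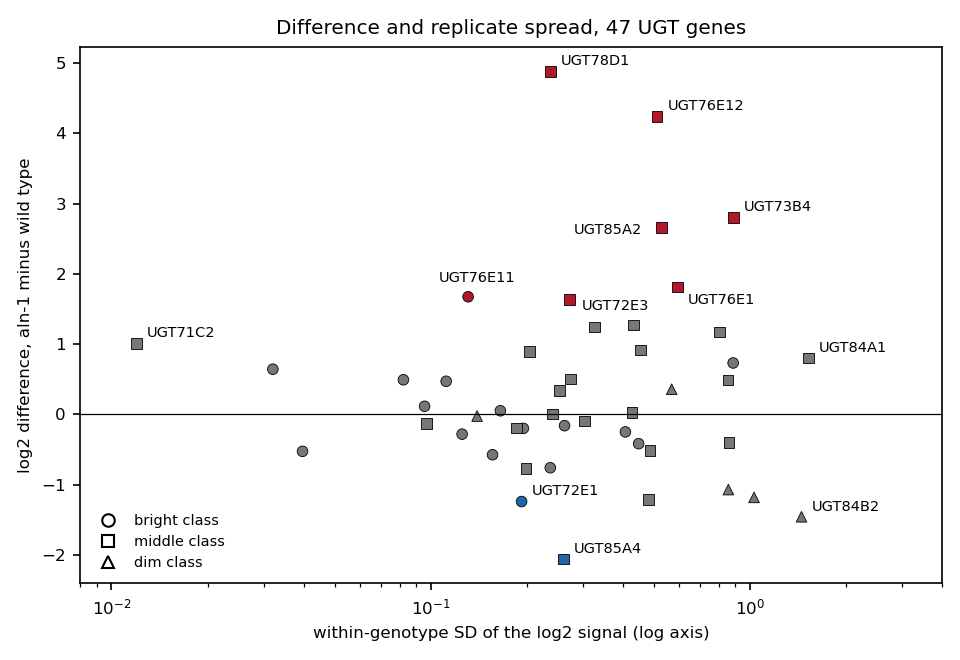
Log2 difference, aln-1 minus wild type (y axis), against the within-genotype SD (x axis, log scale) for the 47 UGT genes, with the marker shape giving the brightness class and red or blue marking genes 2-fold higher or lower in each of the 4 array pairs. UGT78D1 combines the highest difference with a moderate spread, UGT71C2 has the lowest SD at 0.012, and UGT84A1 has the highest at 1.53.

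Beta-glucosidases can remove the glucose that some UGTs attach. Of the 40 listed 20 had a probe set assigned to them alone. Of the 20, 0 passed the limma test, 9 had an unadjusted limma p under 0.05, which is 45% beside 23.4% of all probe sets, and 5 were at least 2-fold apart in all 4 pairs, which is 25.0% beside 8.21%. The list's median difference was 0.02. BGLU24 and BGLU40 were higher in aln-1, with differences of 2.96 (SE 0.25) and 1.78 (SE 0.20). BGLU43, BGLU36 and BGLU19 were lower, with differences of -2.60 (SE 0.22), -1.85 (SE 0.43) and -4.55 (SE 0.82). The probe set of BGLU19 was in the dim class, and its wild type arrays were at 1.62 and 3.63. Of these 5, BGLU24 and BGLU43 had the lowest limma adjusted p, 0.0721 each.

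BGLU45 and BGLU46 act on monolignol glucosides, products of the UGT72E enzymes, and BGLU47 is grouped with them here. BGLU45 was added after its values were seen, to complete the trio. They differed by 0.95 (SE 0.49), 1.15 (SE 0.48) and -1.27 (SE 0.36), with separated genotypes in each case, as in 60.1% of all probe sets. BGLU45 was at 0.36 without wild type replicate 2, and without wild type replicate 1 BGLU46 was at 0.65 and BGLU47 at -0.84. BGLU31 and BGLU29 differed by -3.25 (SE 2.43) and -1.26 (SE 1.30), with wide scatter within genotypes, for example with wild type replicate 1 of BGLU31 at 5.74 and replicate 2 at -0.31. Without that first array BGLU31 was at -0.23, and without aln-1 replicate 2 BGLU29 was at 0.36.

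Few genes of the pathways that feed or use the UGTs had a probe set that the annotation assigned to them alone. The annotation left out 8730 of the 22746 probe sets, so the array may carry others of these genes. Of 20 genes of UDP-sugar supply 0 had such a probe set. Of 23 genes of flavonoid and anthocyanin synthesis 3 had one and 0 passed, with 0 at an unadjusted limma p under 0.05. BAN, an anthocyanidin reductase with a dim probe set, differed by 1.70 (SE 0.75), or by 0.79 without wild type replicate 2. DFR, dihydroflavonol reductase, differed by -0.54 (SE 0.24), or by -0.29 without wild type replicate 1. The anthocyanin acyltransferase AT5MAT differed by 0.05 (SE 0.42) and ranged from -0.46 to 0.56 as each array was left out. Of 20 genes in glucosinolate synthesis the single one with such a probe set was BCAT4 at -0.87 (SE 0.26). Of 15 in ABA synthesis and breakdown it was BGLU33 at -0.50 (SE 0.21), or -0.29 without aln-1 replicate 2.

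Markers of roots, which were not part of the harvest, and markers of green tissue were looked at as well. Of 10 root markers 3 had a probe set assigned to them alone. All 3 lay above wild type on both aln-1 arrays, as did 25.2% of all probe sets. EXPA7 and EXPA18, expansins of root hairs, differed by 1.43 (SE 0.36) and 1.14 (SE 0.25), and PYK10, a root beta-glucosidase, by 0.20 (SE 0.13). Of 8 markers of green tissue 5 had such a probe set, and all 5 had differences below 0, from -0.92 to -0.12. Of all probe sets 44.0% had differences above 0, so most lay on the same side as these 5. The genotypes overlapped for 2 of the 5, LHCB4.1 and PSAE-1, and PSAE-1 was at 0.059 without wild type replicate 1. None of these 3 root and 5 green tissue markers passed the limma test. An unadjusted limma p under 0.05 was found for 4 of them, beside 23.4% of all probe sets. Their part in the UGT differences was not tested.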

How the data were processed

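The series has 4 Affymetrix ATH1 arrays, 2 from Col-0 seedlings and 2 from the aln-1 mutant, grouped by title. The deposited values are log2 signals; per the submitters' processing notes they were made with MAS5, with version, scaling and log step not given in the sources used here. In all 22746 rows the middle pair of values added up to 0 within 2e-06, so each row is centred on its own median and holds no signal level. No source states the log base, which was taken as 2; fold values rest on it.

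Values were fitted as deposited with limma 3.58.1 in R 4.3.3 (lmFit and eBayes on genotype, two-sided, Benjamini-Hochberg over all probe sets, threshold 0.05). A filter on signal and a pseudocount need levels and were not used. The step was tested on simulated data. With 2 arrays against 2 a permutation test cannot go below p = 0.333, so none is given. The number of arrays limits the precision.

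The brightness class is the finest rounding step of a row's 4 single precision values: bright for signals of at least 256, dim for a step that belongs to signals below 16 on at least 1 array. It is approximate.

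Gene names came from the array annotation, which paired 13513 probe sets with 1 gene and 503 with several and left 8730 out. RefSeq TAIR10.1 gave identifiers and gene order only. UGT group letters and roles are background knowledge. Members and lists were chosen with earlier results of these data known. All members are named, with values on each array for those 2-fold apart in all pairs and for the ABA genes UGT71B6 and UGT71C5 (UGT71B8 was added after its values were seen); of the related lists, genes 2-fold apart in all pairs and up to 4 others with the largest differences are named. Same-numbered arrays did not deviate together (r = 0.0209 over probe sets), so replicate numbers were not used as pairs. The alternatives tried were each array left out, array centring, other variance priors, thresholds, probe set filters and member lists.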

Additional observations from a re-analysis of the deposited data

How the results depend on the processing

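The count of 1 UGT gene called by limma was 0 in the fit with a replicate block, where UGT78D1 had a limma adjusted p of 0.190. It was also 0 with a robust prior (limma adjusted p 0.0512) and 0 at a threshold of 0.01. In each of these settings the calls over all probe sets were 0 as well, so the loss was not particular to UGT78D1. With 1 array left out, 1 genotype had a single array, and the difference of UGT78D1 stayed between 4.71 and 5.06. The count of UGT genes called was 5 at a threshold of 0.1 (1078 over all probe sets), 6 without the dim class and 6 with priors fitted within brightness classes. Of these, UGT76E11, UGT76E12, UGT78D1 and UGT85A4 were called in both of the last 2 settings, UGT71C2 and UGT72E3 only without the dim class, and UGT72E1 and UGT85A2 only with brightness priors; the cause was not tested. Over all probe sets the calls in those 2 settings numbered 883 and 1055, against 58. In both, and at a threshold of 0.1 (for these lists chosen after seeing the data), 3 genes of the related lists were called, against 0 in the other settings run; at 0.1 they were the beta-glucosidase genes BGLU24, BGLU40 and BGLU43. Members 2-fold apart in all pairs numbered 10 to 16 when 1 array was dropped and 2 pairs remained. With fewer pairs the count could not fall, and the share of all probe sets under that looser condition is not given here. The count was 10 with UGT genes under other symbols added, and 9 under the other filters and centring. The family's median difference was 0.013 to 0.14 when 1 array was dropped and 0.23 without the dim class, which removes 5 members, 4 of them with differences below 0. For single genes, the replicate block, the variance priors and the probe set filters left each difference as it was, so only calls could change there. A sign could change only with an array left out or with array centring. Of 465 per-gene values recomputed under 10 alternatives, 429 had the same sign and call as in the report, 6 lost the call, 10 gained one and 20 changed sign, in 12 genes. Dropping each array in turn, these 12 ranged from -0.11 to 0.21 for UGT71C5, -0.36 to 0.42 for UGT73B1, -1.13 to 0.32 for UGT73D1, -0.041 to 1.51 for UGT76B1, -0.41 to 0.092 for UGT78D2, -0.16 to 0.11 for UGT78D3 (0.033 after array centring), -0.53 to 2.14 for UGT84A1, -0.37 to 0.18 for UGT84A4, -0.076 to 0.79 for UGT84B1, -0.11 to 1.10 for UGT85A3, -0.21 to 0.22 for UGT85A5 and -0.64 to 0.15 for UGT88A1. The alternative with a pseudocount on linear signal was not run, since the values hold no level.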

Other observations

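Further UGT probe sets fell outside the membership rule. GT72B1 (UGT72B1), which conjugates foreign phenols and anilines, was at -0.89 and -0.61 in wild type and at 0.61 and 0.63 in aln-1, a difference of 1.37 (SE 0.17) with a limma adjusted p of 0.0868; its subfamily relative UGT72B3 differed by -0.76. UF3GT (UGT79B1), an anthocyanin xylosyltransferase, differed by 0.36 (SE 0.22), SGT (UGT80A2), a sterol glucosyltransferase, by 0.06 (SE 0.18) and the auxin glucosyltransferase gene IAGLU by -0.23 (SE 0.16). AT5G54010 (UGT79B6) scattered from -1.88 to 2.11 within aln-1.

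Probe sets shared by several genes cannot be assigned to one. The probe set of AT1G73885 and UGT89B1 was at -0.80 and -1.07 in wild type and at 1.22 and 0.80 in aln-1, a difference of 1.94 (SE 0.23) with a limma adjusted p of 0.0866. That of UGT71D1 and AT2G29710 differed by 1.02 (SE 0.17). That of UGT73B2 and UGT73B3 differed by 1.29 (SE 0.61), with aln-1 arrays at 0.18 and 1.70.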
